A study of Mus musculus with 12 samples.

Results

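The neuropilin, semaphorin and plexin genes described here are 7 genes chosen by name: the neuropilins Nrp1 and Nrp2, the plexin Plxnd1, and the semaphorins Sema4a, Sema4b, Sema4d and Sema7a. They are 7 of 18193 genes read on the arrays, and 18 of the 45037 probe sets name them. Each gene is represented by the brightest of its probe sets, judged over all arrays, on the log2 scale. Expression was measured on 12 mouse arrays, each of sorted CD8 T cells of strain C57bl/c mice aged 6 to 8 weeks. Naive CD8 T cells came from the spleen of naive mice, with no sort gates given for them in the sources used here (n = 5). Tumour-infiltrating lymphocytes (TIL) came from B16F10-GP tumours, a mouse skin melanoma grown in the flank and harvested between day 17 and day 19. Of these, PD-1+ Tim-3- cells, also sorted as 2B4- and called stem-like in the labels (n = 3), and PD-1+ Tim-3+ cells, also 2B4+ and called exhausted (n = 4), were read. Tissue and tumour therefore differ together between naive cells and TIL, and a spleen naive cell is no precursor taken from the same mouse. The labels do not say which arrays came from separate animals or from pools, so p-values measure only the spread between these samples, which may be technical.

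Semaphorins are secreted or membrane-bound signals first known from axon guidance. Plexins are their main receptors, and they act on small GTPases that set the actin skeleton and adhesion. Neuropilins have short intracellular tails and act as co-receptors, for class 3 semaphorins with plexins of class A and for VEGF with its receptor kinases. In the immune system Nrp1 is known from regulatory T cells of the thymus and from activated CD8 T cells in tumours. Sema4a and Sema4d sit on the surface of T cells and antigen-presenting cells, and Sema7a is held by a lipid anchor and binds integrins.

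Nrp1 and Nrp2 went opposite ways between naive cells and both kinds of TIL. Nrp1 was 31.5-fold higher in Tim-3- TIL and 25.0-fold higher in Tim-3+ TIL than in naive cells, whereas Nrp2 was 23.0-fold and 21.4-fold lower. Sema7a also rose in both kinds of TIL. Sema4b fell and Plxnd1 rose in steps, from naive to Tim-3- to Tim-3+ cells. Sema4a was lowest in Tim-3- TIL, and Sema4d passed in none of the 3 comparisons.

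The sequences just upstream of the start sites of the genes that changed most are shown so that the stretches of rising and falling genes can be read side by side. They are the 250 bases before the start, from RefSeq on GRCm38.p6, in reading direction. Capitals mark matches, on either strand, to 5 motifs: CTTTGAT, bound by TCF and LEF factors; AAAGGTCA, bound by NR4A factors; TGANTCA, bound by AP-1; the CACCC box CCACCC; and the GC box GGGCGG. Matches of different motifs can overlap. The rising genes are Nrp1 (chr8:128358823-128359072, plus strand), Sema7a (chr9:57939862-57940111, plus strand) and Plxnd1 (chr6:115995006-115995255, minus strand). The falling genes are Nrp2 (chr1:62703067-62703316, plus strand) and Sema4b, which has 2 listed starts (chr7:80186620-80186869 and chr7:80198338-80198587, plus strand).
Nrp1: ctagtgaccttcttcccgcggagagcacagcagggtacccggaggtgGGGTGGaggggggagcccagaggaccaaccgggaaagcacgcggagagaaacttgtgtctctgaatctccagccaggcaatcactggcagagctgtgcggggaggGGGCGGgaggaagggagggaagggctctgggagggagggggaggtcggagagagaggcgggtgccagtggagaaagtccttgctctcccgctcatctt
Sema7a: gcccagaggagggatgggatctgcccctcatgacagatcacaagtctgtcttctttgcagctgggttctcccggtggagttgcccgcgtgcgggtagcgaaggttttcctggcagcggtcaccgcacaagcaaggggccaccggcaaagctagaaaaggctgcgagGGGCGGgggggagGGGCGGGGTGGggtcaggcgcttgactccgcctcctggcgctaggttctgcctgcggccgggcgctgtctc
Plxnd1: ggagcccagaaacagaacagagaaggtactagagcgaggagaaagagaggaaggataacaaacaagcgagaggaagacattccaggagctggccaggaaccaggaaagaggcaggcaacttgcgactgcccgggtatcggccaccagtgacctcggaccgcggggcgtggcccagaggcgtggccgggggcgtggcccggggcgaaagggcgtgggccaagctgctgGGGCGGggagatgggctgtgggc
Nrp2: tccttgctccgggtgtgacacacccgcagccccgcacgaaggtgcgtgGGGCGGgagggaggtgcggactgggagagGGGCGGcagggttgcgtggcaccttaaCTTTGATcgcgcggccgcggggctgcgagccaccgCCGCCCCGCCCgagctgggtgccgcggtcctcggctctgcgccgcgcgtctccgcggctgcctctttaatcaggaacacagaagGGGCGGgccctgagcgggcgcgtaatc
Sema4b first start: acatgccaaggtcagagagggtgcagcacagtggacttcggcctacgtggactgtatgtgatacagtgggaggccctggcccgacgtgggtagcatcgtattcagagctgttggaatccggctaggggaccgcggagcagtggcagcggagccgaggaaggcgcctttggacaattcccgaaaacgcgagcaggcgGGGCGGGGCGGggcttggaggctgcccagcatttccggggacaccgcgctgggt
Sema4b second start: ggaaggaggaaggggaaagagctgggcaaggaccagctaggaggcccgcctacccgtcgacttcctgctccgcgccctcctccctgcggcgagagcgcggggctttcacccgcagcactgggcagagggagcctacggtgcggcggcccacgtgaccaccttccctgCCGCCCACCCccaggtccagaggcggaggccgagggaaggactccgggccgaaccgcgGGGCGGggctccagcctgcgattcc

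The Nrp2 stretch held 1 match to CTTTGAT, which starts at base -146 from the start site, and 5 GC boxes. The stretches of Nrp1, Sema7a, Plxnd1 and Sema4b held no CTTTGAT, nor did the other listed starts of the members. Of 32817 promoter stretches of this length, 3.21% held that motif. The motifs were chosen after the sequences were seen and 13 stretches of the members were searched, so the match in Nrp2 tests nothing. AAAGGTCA, in 1.34% of all stretches, was in none of the 13 stretches of the 7 genes. TGANTCA, in 6.75%, was in 1, a start of Sema4d. CCACCC was found in 28.1% of all stretches and GGGCGG in 32.7%. Among the printed stretches, those of Nrp1, Sema7a and the second Sema4b start held CCACCC, and all held GGGCGG. The printed stretches held 32 CpG pairs in Nrp2, 20 and 23 in Sema4b, 17 in Sema7a, 16 in Plxnd1 and 11 in Nrp1. The median over all stretches was 6, so rising and falling genes alike lay above it. Stretches of Sema4a and Sema4d held between 1 and 13. A match is a run of letters and does not show that a factor binds there.

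**Figure D1:**
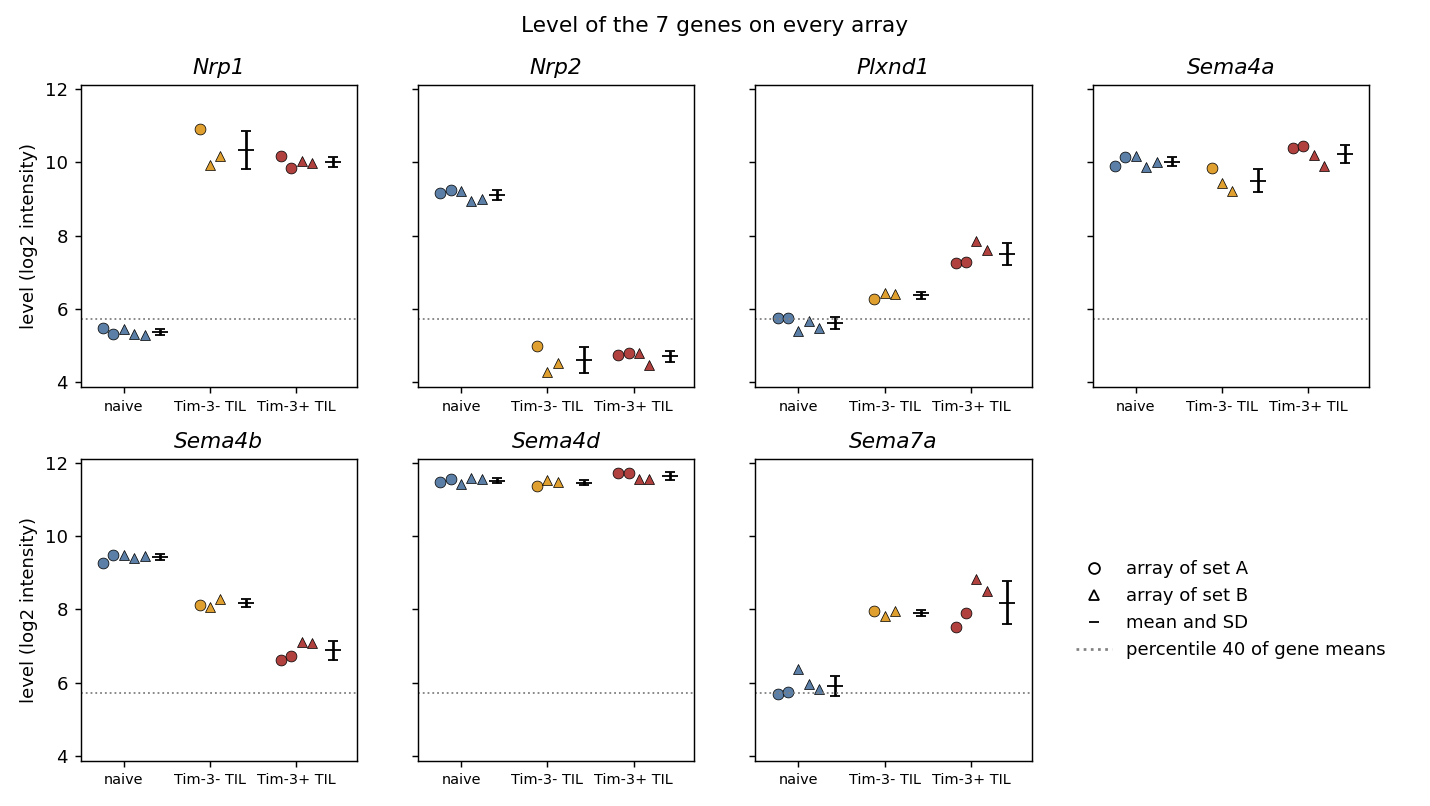
Level of each gene on each of the 12 arrays (log2 intensity), by group, with the mean and SD as the black mark; circles and triangles part 2 sets of arrays found from deviations within groups, and the dotted line is log2 5.71, percentile 40 of the gene means. Nrp1 and Nrp2 swap between naive cells and TIL with no overlap, Sema4b and Plxnd1 step through the 3 groups, and Sema4d stays between 11.39 and 11.74.

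The 3 groups were compared pairwise with limma, in a single model of all 12 arrays. A gene passed where its adjusted p (Benjamini-Hochberg over 18193 genes) was below 0.05. Changes carry their SE and levels their SD. All 3 comparisons share arrays with each other, so their values stand side by side and are not independent. Arrays were also split into 2 sets that no label names, by the sign of the main axis of their deviations from group means. This axis held 35.8% of the variance of the deviations, and such a split always gives 2 sets. Tim-3+ replicates 1 and 2 and Tim-3- replicate 1 fell with naive replicates 1 and 2 in set A, and the remaining arrays formed set B. The arrays of set A are listed first in the series and those of set B after them. For the members, values within each set are given where a call or the direction differed. Differences in size, and those of other genes, are given only in part. The sort markers followed the labels: Havcr2, which encodes Tim-3, exceeded its level in Tim-3- TIL by 4.58 ± 0.20 in Tim-3+ TIL, and Pdcd1, which encodes PD-1, was 6.24 ± 0.16 and 6.63 ± 0.15 higher in Tim-3- and Tim-3+ TIL than in naive cells. The CD8 T cell genes Cd3d, Cd3e, Cd3g and Cd8a lay above 12 in the mean of every group, while Cd8b1, the other measured gene of that list, fell from 12.46 ± 0.054 in naive cells to 11.70 ± 0.12 and 11.76 ± 0.14 (limma adjusted p = 3.24e-05 and 2.11e-05).

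Nrp1 was the member with the largest rise. On probe set 1418084_at, its log2 levels in naive replicates 1 to 5 were 5.48, 5.31, 5.44, 5.31 and 5.29. Tim-3- replicates 1 to 3 lay at 10.92, 9.93 and 10.18, and Tim-3+ replicates 1 to 4 at 10.18, 9.86, 10.03 and 9.97. Every TIL array lay above every naive array, and the TIL groups overlapped. The log2 change against naive was 4.98 ± 0.17 in Tim-3- TIL (adjusted p = 7.80e-11) and 4.64 ± 0.16 in Tim-3+ TIL (adjusted p = 2.67e-11). The naive mean of 5.37 ± 0.087 lies below log2 5.71, percentile 40 of all genes, where a value may be background, so these changes may be lower bounds.

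Between the TIL groups, Nrp1 did not pass the threshold (-0.34 ± 0.18, 95% interval -0.73 to 0.056, adjusted p = 0.295). Tim-3- replicate 1 was the highest array. Without it the difference was -0.046, and within set A, where it is the only Tim-3- array, the difference was -0.91 (adjusted p = 0.0409 by limma, with that array assumed to vary like the others). Within set B it was -0.054.

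All 4 probe sets of Nrp1 were higher in both kinds of TIL. The 3 brighter ones rose by between 4.98 and 5.72 in Tim-3- TIL and between 4.64 and 5.73 in Tim-3+ TIL. The dimmest, 1457198_at, rose by 1.33 ± 0.20 and 1.38 ± 0.18, and its TIL means of 5.69 and 5.75 lay near log2 5.71. None of the 4 passed between the TIL groups.

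Nrp2, the other neuropilin, showed the opposite order. Naive replicates 1 to 5 lay at 9.18, 9.26, 9.21, 8.94 and 8.99. Tim-3- replicates 1 to 3 lay at 4.98, 4.27 and 4.52, and Tim-3+ replicates 1 to 4 at 4.74, 4.79, 4.80 and 4.46. Every TIL array was below log2 5.71, and the TIL groups overlapped. The changes against naive were -4.52 ± 0.15 in Tim-3- TIL (adjusted p = 4.90e-11) and -4.42 ± 0.14 in Tim-3+ TIL (adjusted p = 1.03e-11), and with TIL near background they may be lower bounds in size. The TIL groups differed by 0.10 ± 0.16 (95% interval -0.24 to 0.44, adjusted p = 0.783), with -0.22 in set A and 0.23 in set B.

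This fall was read by 1 of the 4 probe sets of Nrp2, 1435349_at. The other 3 had group means between 2.58 and 5.44, below log2 5.71, and none passed in any comparison. Of these, 1426528_at was at 5.44 in naive cells, 5.44 in Tim-3- TIL and 5.34 in Tim-3+ TIL. Which transcripts of Nrp2 each probe set reads is not given in the sources used here.

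Plxnd1, a plexin known as the receptor of Sema3e and as a receptor of Sema4a, rose at both steps. Naive replicates 1 to 5 lay at 5.76, 5.74, 5.39, 5.66 and 5.48, Tim-3- replicates 1 to 3 at 6.26, 6.43 and 6.41, and Tim-3+ replicates 1 to 4 at 7.25, 7.27, 7.87 and 7.61. No groups overlapped. Plxnd1 was 0.76 ± 0.14 higher in Tim-3- TIL than in naive cells (adjusted p = 0.000842) and rose by a further 1.13 ± 0.15 in Tim-3+ TIL (adjusted p = 0.000166). The whole difference from naive to Tim-3+ cells was 1.90 ± 0.13, or 3.72-fold (adjusted p = 3.72e-08). It passed in each fit that left out 1 array and within each set (0.51 in set A and 0.91 in set B for the first step), and the naive mean of 5.61 may be background. Plxnd1 has 1 probe set, 1451475_at.

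Sema4b, a membrane semaphorin of class 4, showed the reverse order. Naive replicates 1 to 5 lay at 9.28, 9.48, 9.50, 9.41 and 9.46, Tim-3- replicates 1 to 3 at 8.13, 8.08 and 8.29, and Tim-3+ replicates 1 to 4 at 6.61, 6.71, 7.11 and 7.07. Again no groups overlapped, and both steps were of like size. Sema4b changed by -1.26 ± 0.13 from naive to Tim-3- cells (adjusted p = 2.54e-06) and by -1.29 ± 0.13 from Tim-3- to Tim-3+ cells (adjusted p = 1.52e-05), in all 5.85-fold lower in Tim-3+ TIL than in naive cells. Its second probe set, 1427586_at, had the same order (9.48 ± 0.49, 7.89 ± 1.06 and 6.53 ± 0.46). There the arrays spread more, between 6.68 and 8.69 in Tim-3- TIL, and the TIL groups differed by -1.36 ± 0.42, short of the threshold (adjusted p = 0.0555).

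Sema4a, a class 4 semaphorin of activated T cells and dendritic cells, was lowest in Tim-3- TIL. Naive replicates 1 to 5 lay at 9.91, 10.15, 10.17, 9.88 and 10.01, Tim-3- replicates 1 to 3 at 9.85, 9.43 and 9.23, and Tim-3+ replicates 1 to 4 at 10.40, 10.45, 10.21 and 9.90. Tim-3- arrays lay below all others, with the highest of them close to the lowest naive array. Tim-3+ exceeded Tim-3- TIL by 0.74 ± 0.16 (adjusted p = 0.00736), and the change from naive to Tim-3- cells was -0.52 ± 0.16 (adjusted p = 0.0180). Tim-3+ and naive cells differed by 0.22 ± 0.14 (95% interval -0.090 to 0.52, adjusted p = 0.254), by 0.40 in set A and 0.035 in set B.

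The fall of Sema4a from naive to Tim-3- cells was the least firm call of a member. It was lost without Tim-3- replicate 2 (adjusted p = 0.0674) or replicate 3 (adjusted p = 0.115). Set A alone gave -0.18 (adjusted p = 0.476) and set B alone -0.69. For the rise between TIL groups, set A alone gave 0.57 (adjusted p = 0.0885) and set B alone 0.72, and it passed in all 12 fits that left out 1 array (adjusted p between 0.00194 and 0.0439). The second probe set, 1448110_at, passed in the same directions (0.70 ± 0.17 and -0.61 ± 0.16).

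Sema7a, the lipid-anchored semaphorin, rose in TIL. Naive replicates 1 to 5 lay at 5.69, 5.75, 6.37, 5.95 and 5.81, Tim-3- replicates 1 to 3 at 7.96, 7.81 and 7.95, and Tim-3+ replicates 1 to 4 at 7.53, 7.89, 8.83 and 8.50. Tim-3+ arrays lay on both sides of the Tim-3- arrays. Against naive, the change was 1.99 ± 0.24 in Tim-3- TIL (adjusted p = 1.77e-05) and 2.27 ± 0.22 in Tim-3+ TIL (adjusted p = 1.29e-06), 3.97-fold and 4.83-fold. The TIL groups differed by 0.28 ± 0.25 (95% interval -0.26 to 0.83, adjusted p = 0.581). Set A alone gave -0.25, and set B alone 0.78 (adjusted p = 0.0379). Its second probe set, 1422040_at, rose by 1.28 ± 0.18 and 1.83 ± 0.16 against naive.

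Sema4d, known as CD100 and a ligand of CD72 and of class B plexins, was nearly flat. Naive replicates 1 to 5 lay at 11.47, 11.56, 11.42, 11.60 and 11.55, Tim-3- replicates 1 to 3 at 11.39, 11.54 and 11.47, and Tim-3+ replicates 1 to 4 at 11.74, 11.73, 11.56 and 11.57. All Tim-3+ arrays lay above all Tim-3- arrays, by a narrow margin, and both overlapped the naive arrays. The differences were 0.18 ± 0.096 between TIL groups (adjusted p = 0.281), -0.054 ± 0.092 for Tim-3- TIL against naive (adjusted p = 0.699) and 0.13 ± 0.084 for Tim-3+ TIL against naive (adjusted p = 0.259). The 95% intervals run from -0.025 to 0.39, -0.25 to 0.14 and -0.055 to 0.31. In set A the TIL groups differed by 0.35 and in set B by 0.055. The second brightest probe set, 1420823_at, showed 0.59 ± 0.18 between TIL groups (adjusted p = 0.0539), and with the mean of all 3 probe sets the gene passed there (0.38, adjusted p = 0.0260).

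**Figure D2:**
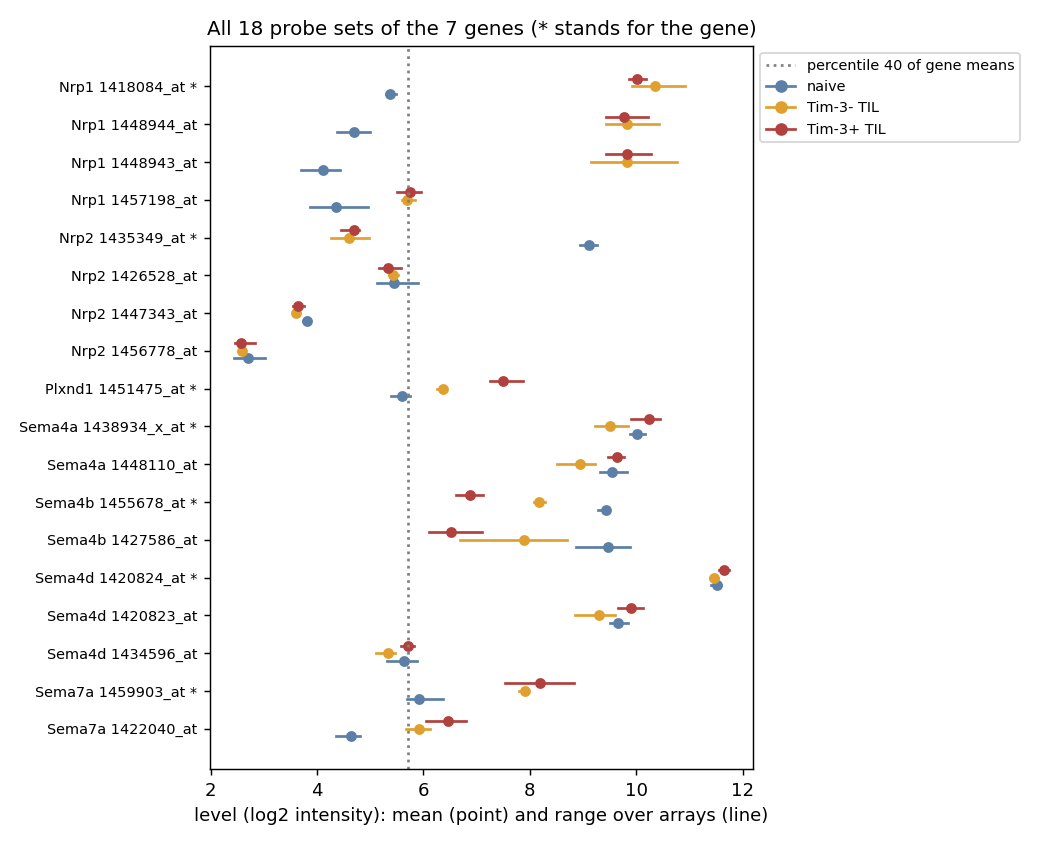
Mean (point) and range over arrays (line) of all 18 probe sets of the 7 genes, on the log2 intensity scale, coloured by group; a star marks the probe set that stands for the gene and the dotted line is log2 5.71. Levels of different probe sets are not comparable; naive cells lie below both kinds of TIL in all probe sets of Nrp1 and Sema7a and above them in both of Sema4b, and Nrp2 is high in naive cells in 1 of 4.

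Counted over the members, 3 of 7 passed between the TIL groups (2 higher, 1 lower in Tim-3+ cells), where 13.5% of all genes passed (7.77% higher, 5.77% lower). For Tim-3- TIL against naive 6 of 7 passed (3 higher, 3 lower), where 34.4% of all genes did (16.1% higher, 18.3% lower), and for Tim-3+ TIL against naive 5 of 7 (3 higher, 2 lower), where 41.5% did (20.1% higher, 21.4% lower). Arrays of both groups did not overlap for 4, 6 and 5 of the 7 genes in that order, and for 22.7%, 35.1% and 37.3% of all genes. The median log2 changes of the members were 0.18, -0.054 and 0.22, and those of all genes 0.011, -0.063 and -0.065. The members were picked with earlier results known, so these shares describe them and test nothing. In order of level, Nrp1 and Sema7a stood lowest in naive cells and Nrp2 highest there, with TIL groups not parted beyond their spread. Plxnd1 and Sema4b ordered all 3 groups, in opposite directions.

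**Figure D3:**
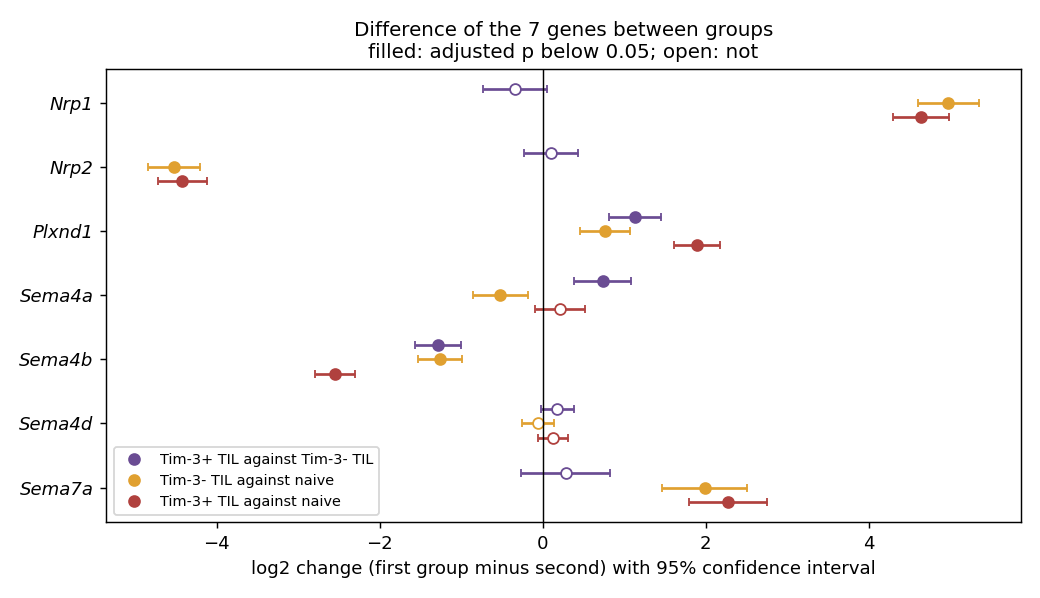
Log2 change of each gene in the 3 comparisons (first group minus second) with its 95% confidence interval from limma; filled points have an adjusted p below 0.05. Nrp1 and Nrp2 lie near 5 and below -4 against naive with open points between the TIL groups, while Plxnd1 and Sema4b are filled in all 3 comparisons.

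The rest of the family was read from fixed lists, set with earlier results of these data known. Of 16 other semaphorin genes, Tim-3- TIL had 2 higher and 2 lower than naive cells, Tim-3+ TIL had 2 higher and 3 lower than naive cells, and 1 rose and 2 fell from Tim-3- to Tim-3+ cells. In 8 of the 16 every group mean lay below log2 5.71. Medians over the list were -0.084, -0.055 and -0.015 in that order. Over all genes, 34.4%, 41.5% and 13.5% passed in that order.

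Sema4c, a class 4 semaphorin that binds class B plexins, went from 4.03 ± 0.24 in naive cells to 10.43 ± 0.35 in Tim-3- and 9.65 ± 0.18 in Tim-3+ TIL. That is a log2 change of 6.39 ± 0.17 in Tim-3- TIL (adjusted p = 7.22e-12), from a naive level that may be background. It was lower in Tim-3+ than in Tim-3- TIL (-0.77 ± 0.18, adjusted p = 0.00898), a call lost within set B (-0.66, adjusted p = 0.123). Sema6d, a membrane semaphorin that binds class A plexins, rose at both steps, from 5.15 ± 0.16, below log2 5.71, to 8.42 ± 0.62 and 10.30 ± 0.79 (1.88 ± 0.35 between TIL groups, adjusted p = 0.00256). Sema4f fell at both steps, from 10.27 ± 0.13 to 9.58 ± 0.14 and 8.02 ± 0.21 (-1.57 ± 0.13 between TIL groups, adjusted p = 2.05e-06), the same order as Sema4b.

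Of 8 other plexins, limma called 1 higher and 2 lower in Tim-3- TIL than in naive cells, 3 lower in Tim-3+ TIL than in naive cells, and 1 lower in Tim-3+ TIL than in the other TIL. The shares of all genes that passed were 34.4%, 41.5% and 13.5% in that order. The 4 class A and 3 class B plexins had group means of at most 5.84. Plxna3 was at -0.40 ± 0.14 in Tim-3- TIL against naive (adjusted p = 0.0375), a call lost in several alternatives, among them set A alone (-0.039, adjusted p = 0.898) and leaving out Tim-3- replicate 3 (-0.20, adjusted p = 0.251). The calls of Plxna2 and Plxna4 in Tim-3+ TIL against naive (-0.33 and -0.30) were each lost in several alternatives, among them leaving out Tim-3+ replicate 3 (adjusted p = 0.0826 and 0.0919) or replicate 4 (adjusted p = 0.0790 and 0.111). Plxnc1, the plexin that binds Sema7a, was highest in Tim-3- TIL: 10.44 ± 0.092, against 8.38 ± 0.18 in naive and 8.57 ± 0.42 in Tim-3+ cells. It rose by 2.06 ± 0.18 from naive to Tim-3- cells (adjusted p = 8.16e-07) and changed by -1.87 ± 0.19 from Tim-3- to Tim-3+ cells (adjusted p = 1.49e-05). Naive and Tim-3+ cells differed by 0.18 ± 0.17 (adjusted p = 0.419). With its most variable probe set, however, Plxnc1 was 1.69 higher in Tim-3+ than in naive cells (limma adjusted p = 0.000276). This difference also passed with the mean of its probe sets (0.70, adjusted p = 0.00239) and in set B alone (0.46, adjusted p = 0.0165). It thus depends on the probe set. Plxnd1, by contrast in order, was highest in Tim-3+ cells.

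**Figure D4:**
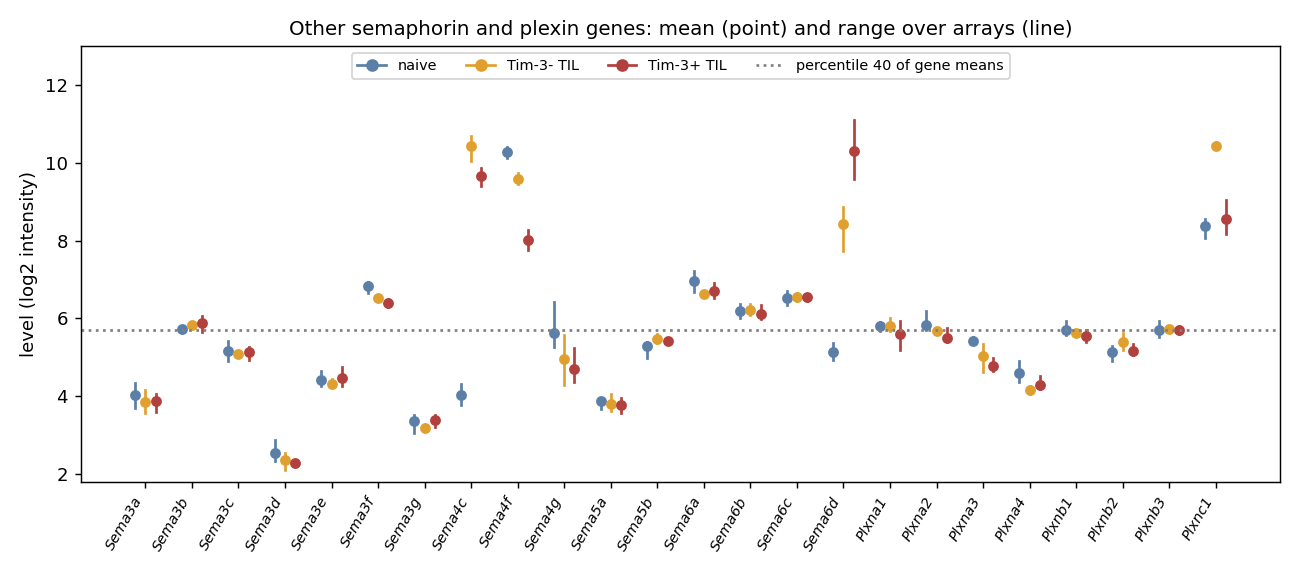
Mean (point) and range over arrays (line) of 16 other semaphorin and 8 other plexin genes (log2 intensity), coloured by group; the dotted line is log2 5.71. Sema4c and Sema6d rise from naive cells to TIL, Sema4f steps down, Plxnc1 peaks in Tim-3- TIL, and the class A and B plexins stay near or below the line.

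Among 6 other receptors of the member semaphorins, 2 were higher and 1 lower in Tim-3- TIL, and 3 higher and 1 lower in Tim-3+ TIL, than in naive cells, and 1 rose and 2 fell between TIL groups. Among all genes 34.4%, 41.5% and 13.5% passed in that order. The integrin chains that pair to bind Sema7a both rose against naive. Itga1 went from 3.89 ± 0.43, below log2 5.71, to 6.69 ± 0.35 and 7.89 ± 0.36. Itgb1 went from 8.47 ± 0.11 to 12.17 ± 0.10 and then fell to 10.75 ± 0.11 in Tim-3+ cells (-1.42 ± 0.10 between TIL groups, adjusted p = 7.25e-07). Cd72, a receptor of Sema4d best known from B cells, fell from 9.89 ± 0.34 to 8.74 ± 0.074 and 7.33 ± 0.20. Between TIL groups it changed by -1.41 ± 0.18 (adjusted p = 0.000112). Met, also counted as higher in Tim-3+ TIL than in naive cells, rose there by 1.84 ± 0.56 (limma adjusted p = 0.0156). Its Tim-3+ replicates 1 to 4 were widely spread, at 6.62, 2.88, 5.93 and 5.13. They overlapped the naive arrays, which ran from 2.98 to 3.71, below log2 5.71. The summed linear intensity of 8 melanoma genes, described further below, was 1264, 345, 885 and 570 on Tim-3+ replicates 1 to 4. Met thus ordered these replicates as that sum did, and the part of tumour RNA in the Met values was not tested.

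Of 15 other neuropilin ligands and co-receptors, 2 were higher and 2 lower in Tim-3- TIL, and 3 higher and 2 lower in Tim-3+ TIL, than in naive cells, and 2 rose between TIL groups. In the same order, 34.4%, 41.5% and 13.5% of all genes passed. Vegfa, the growth factor that Nrp1 binds with its receptor kinases, lay at 5.56 ± 0.15, 5.46 ± 0.24 and 6.32 ± 0.21, and rose by 0.86 ± 0.14 between TIL groups (adjusted p = 0.00103). The receptor kinase genes Kdr, Flt1 and Flt4 had means below 5.71 in all groups. L1cam, an adhesion molecule that partners Nrp1 in neurons, rose at both steps, by 0.91 ± 0.16 and 1.01 ± 0.17. Set A alone, with a single Tim-3- array, gave 0.75 and 1.09, which did not pass (adjusted p = 0.172 and 0.115). Tgfb1, which encodes a cytokine that neuropilins also bind, was 1.39 ± 0.31 higher in Tim-3- TIL than in naive cells (adjusted p = 0.00275), and the receptor gene Tgfbr1 was at -0.98 ± 0.20 (adjusted p = 0.00168).

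Of 28 genes of semaphorin signal transduction, 7 were higher and 5 lower in Tim-3- TIL, and 9 higher and 6 lower in Tim-3+ TIL, than in naive cells, and 5 rose and 2 fell between TIL groups. Median changes were 0.018, 0.060 and 0.083, and 34.4%, 41.5% and 13.5% of all genes passed, in that order. Another gene of that list was not analysed here. Arhgef11, a RhoA exchange factor bound by class B plexins, fell from 9.92 ± 0.34 in naive cells to 6.90 ± 1.06 and 5.28 ± 0.25. The further fall between TIL groups (-1.61 ± 0.36, adjusted p = 0.00840) did not hold in set A alone (-0.51, adjusted p = 0.193), nor once Tim-3- replicate 2 was left out (adjusted p = 0.0531). Farp1, a guanine nucleotide exchange factor, rose by 2.42 ± 0.13 and 2.62 ± 0.12 against naive. Crmp1, a collapsin response mediator, rose by 2.54 ± 0.20 and 3.25 ± 0.19, from a naive mean of 5.08 that may be background. Mical2, of the actin-oxidizing enzymes that plexins engage, rose by 1.88 ± 0.15 between TIL groups (adjusted p = 1.73e-06). Of 4 proteases that can shed or process semaphorins, Furin was 0.86 ± 0.18 higher in Tim-3- TIL than in naive cells and changed by -0.79 ± 0.19 between TIL groups (adjusted p = 0.0139), the latter lost without Tim-3- replicate 2 or 3 (-0.72 and -0.74, adjusted p = 0.0666 and 0.0558).

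Genes of other cells that carry neuropilins or semaphorins were read beside these results. In bulk samples, fewer cells of a type and less RNA per cell cannot be told apart. Of 6 genes of regulatory and CD4 T cells, 5 rose in Tim-3- TIL and 4 in Tim-3+ TIL against naive, with Nrp1. Rises were called for 16.1% and 20.1% of all genes in these comparisons. The summed linear intensity of the list ran from 512 to 618 in naive, 2950 to 3360 in Tim-3- and 2575 to 3429 in Tim-3+ arrays. In TIL, Ikzf2 (means 10.92 in Tim-3- and 10.82 in Tim-3+) and Il2ra (9.37 and 9.53) hold most of this sum. Its rise therefore follows these genes and says little of Foxp3 or Cd4. Foxp3, which defines regulatory T cells, lay at 7.09 ± 0.18, 7.94 ± 0.089 and 6.93 ± 0.16. It was 0.85 ± 0.12 higher in Tim-3- TIL than in naive cells (adjusted p = 7.75e-05), while Tim-3+ TIL differed from naive by -0.16 ± 0.11 (adjusted p = 0.291). Il2ra, Ikzf2 and Cd4 of the same list rose there, by 4.41 ± 0.24, 3.54 ± 0.19 and 0.99 ± 0.12. Cd40lg, also of the list, passed in neither comparison against naive, and its group means lay below log2 5.71. It was lower in Tim-3+ than in Tim-3- TIL (-0.75 ± 0.16, limma adjusted p = 0.00613). The part of such cells in the values of either kind of TIL was not tested.

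Of 8 melanoma genes, 2 were higher and 1 lower in Tim-3- TIL, and 5 higher and 1 lower in Tim-3+ TIL, than in naive cells, where 34.4% and 41.5% of all genes passed. The summed intensity of the melanoma genes ran from 445 to 583 in naive, 433 to 705 in Tim-3- and 345 to 1264 in Tim-3+ arrays. Pmel, the brightest of them in naive cells and so the largest part of the naive sum, fell from 8.05 ± 0.31 to 7.17 ± 0.26 and 6.81 ± 0.49. The sum therefore mixes this fall with rises of other genes of the list. The pigment enzyme genes Dct and Tyrp1 rose against naive means of 4.08 and 3.11, below log2 5.71. Dct rose by 2.24 ± 0.58 in Tim-3- and 2.92 ± 0.53 in Tim-3+ TIL, and Tyrp1 by 3.05 ± 0.62 and 3.66 ± 0.57. The part of tumour RNA in the members' values was not tested. Tim-3+ replicate 1 had the highest sum and replicate 2 the lowest, and these lay at 10.18 and 9.86 for Nrp1, 7.25 and 7.27 for Plxnd1 and 7.53 and 7.89 for Sema7a. Endothelial genes, which mark another cell rich in Nrp1 and Plxnd1, summed to 1003 to 1223 in naive, 531 to 593 in Tim-3- and 334 to 388 in Tim-3+ arrays. In 7 of these 9 genes, Cdh5, Tek and Tie1 among them, every group mean lay below log2 5.71. The fall of the sum follows Pecam1, which T cells also express (9.77 ± 0.18, 8.17 ± 0.087 and 6.71 ± 0.20).

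Of 5 B cell genes, 3 fell in both kinds of TIL against naive, in the direction of Nrp2, Sema4b and Cd72. Falls were called for 18.3% and 21.4% of all genes in Tim-3- and Tim-3+ TIL against naive. The summed intensity of the B cell genes ran from 2940 to 3859 in naive, 1175 to 1287 in Tim-3- and 385 to 477 in Tim-3+ arrays. Cd79b, which encodes a B cell receptor chain, fell from 8.89 ± 0.15 to 6.37 ± 0.21 and 5.59 ± 0.15, and Cd79a, its partner, from 6.63 ± 0.25 to 5.66 ± 0.20 and 5.75 ± 0.12. Ms4a1 and Pax5 lay at or below 5.71 in the mean of every group, and Ighm, which holds most of the sum, fell from 11.44 ± 0.17 in naive cells to 7.99 ± 0.26 in Tim-3+ TIL. The part of other cells in the falls was not tested. In Tim-3- TIL against naive, where 34.4% of all genes passed, 2 of 8 dendritic cell genes rose and 2 fell. One of these falls was that of Ccr9, from 11.39 ± 0.10 in naive cells to 5.64 ± 0.37. There, 1 of 9 monocyte and macrophage genes rose, and 1 of 3 NK cell genes rose. The NK cell gene was Eomes (8.61 ± 0.15 to 10.79 ± 0.068), while Ncr1 and Klra8 had group means below log2 5.71. Of 6 fibroblast and 3 neutrophil genes limma called 0 in Tim-3- TIL against naive, where 1 and 0 had an unadjusted p below 0.05. In Tim-3+ TIL against naive, where 41.5% of all genes passed, 2 dendritic cell genes rose and 3 fell. For monocyte and macrophage genes 1 rose and 1 fell, and 1 NK cell gene rose. Fibroblast and neutrophil genes had 0 calls, with 0 and 2 at an unadjusted p below 0.05.

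Genes whose pattern was most like that of a member were found by the root mean square difference of log2 levels over the 12 arrays, each gene centred on its own mean, among 11606 genes. For Nrp1 these were Dusp14 (0.30), Klrc2 (0.31) and Eea1 (0.32), against a SD of 2.48 for Nrp1 itself over the arrays. For Nrp2 they were Slc16a5 (0.25), Igfbp4 (0.27) and Xkrx (0.31), against a SD of 2.31. For Sema4b they were St3gal1 (0.15), Rgcc (0.18) and Dyrk2 (0.18), and the St3gal1 group means were 11.04, 9.77 and 8.34. For Plxnd1 they were Emilin2, Plekhf1 and Tmem171 (0.22 each), for Sema7a Cldn12, Stat3 and Dennd5a (0.23 to 0.25), and for Sema4a Trappc2l, Dennd1b and Sdhaf3 (0.13 to 0.15). The arrays share their 3 groups, so these are likenesses of group pattern.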

How the data were processed

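The authors deposited 1 table of linear intensities per probe set for 12 arrays, with medians between 58.8 and 63.0. Per the submitters' processing notes, RMA and affy were used, and not given in the sources used here are their versions, the return to the linear scale, and whether arrays were normalized jointly. The log2 of each value was taken. Of 45101 probe sets, 64 are controls, 34945 name 1 gene, 932 several and 9160 none, by the platform's annotation. A gene took its brightest single-gene probe set, which gave 18193 genes, with no filter on dim genes. No detection calls are given, and the number of arrays limits the precision.

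Contrasts came from 1 limma fit (3.58.1, R 4.3.3) of 3 group means, two-sided, with Benjamini-Hochberg adjustment. Python 3.11.15, numpy 2.4.6, pandas 2.3.3 and matplotlib 3.10.9 did the rest. The fit was tested on simulated data. Between TIL groups it recovered 16% of true log2 changes of 0.5, 78% of those of 1 and 98% of those of 2. The simulation changed 50 of 18193 genes at each size, with noise independent between arrays. In the real data 2463 genes passed between TIL groups and arrays deviated together, so these rates need not hold there. Small differences between TIL groups can still be missed. The members and lists were chosen with earlier results of these data known. Named genes are the members, sort markers, up to 3 called genes per list and comparison, the 3 most like each called member, and the 2 brightest markers of each other cell; others are named as examples after their values were seen, and some are left out. Motifs were chosen after the sequences were seen.

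Alternatives were the probe set per gene, normalization, dim-gene filter, moderation, array weights, the groups fitted, the replicate number as a block, the 2 sets of arrays, and leaving out each array. Same-numbered arrays had r of deviations between 0.13 and 0.41 within a set (8 pairs) and between -0.15 and -0.13 across sets (2 pairs). The sets were drawn from these same deviations, so this contrast cannot decide whether the numbers pair samples. In set A, naive and Tim-3+ arrays of the same number had r of 0.32 and 0.19, and those of different numbers 0.21 and 0.30. The labels name no pairs, and the main fit did not pair samples.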

Additional observations from a re-analysis of the deposited data

Results flagged for a closer look

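Among the members, Nrp2 had an array apart from its group: Tim-3+ replicate 4, at a log2 level of 4.46 against 4.74 for the nearest and 4.80 for the farthest of the other Tim-3+ arrays, all below log2 5.71. Of the other named genes, single arrays lay apart for Cd8a in naive replicate 3 (12.76, nearest 12.82), Pdcd1 in naive replicate 3 (5.68, nearest 5.07), Csf3r in naive replicate 2 (5.93, nearest 5.39), Stat3 in naive replicate 5 (10.43, nearest 10.27) and Plxna2 in naive replicate 2 (6.18, nearest 5.83). In Tim-3+ TIL the same held for Havcr2 in replicate 2 (11.87, nearest 11.61), Plxna2 in replicate 1 (5.75, nearest 5.45) and Xkrx in replicate 3 (4.48, nearest 4.91). These are 9 of 140 groups examined, and chance sets apart about 1 in 20. Only naive and Tim-3+ arrays were examined in this way, and not the 3 Tim-3- arrays.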

How the results depend on the processing

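The number of genes past the threshold stayed within 1.5 times the main count in all alternatives but 1: between the TIL groups it was 2463, and 1590 within set A. With the replicate number as a block it was 2750, 6415 and 7681 for Tim-3+ against Tim-3- TIL, Tim-3- TIL against naive and Tim-3+ TIL against naive, against 2463, 6252 and 7554 without, and the block changed no call of a member. Of 252 values of the 21 member results with 1 array left out, 2 lost their call, both for Sema4a in Tim-3- TIL against naive, and none gained one. Of 264 values under other settings, 9 lost and 4 gained a call: 6 of the losses are the dim probe sets of Nrp2, 2 are Sema4a within set A and 1 the second probe set of Sema4b. The gains, all between TIL groups, are Nrp1 within set A, Sema7a within set B, and Sema4d with the most variable (0.59, adjusted p = 0.0491) or the mean of its probe sets. The cause was not tested. No member's call changed sign. Among other named genes, Sdhaf3 with its most variable probe set turned to -0.12 for Tim-3+ against Tim-3- TIL and to -0.52 for Tim-3+ TIL against naive, and its probe sets thus differ. Levels below log2 5.71 limit the falls of Nrp2 and the rises of Nrp1, Plxnd1, Sema4c, Sema6d, Itga1 and Crmp1.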
